A study of Mus musculus with 8 samples.

Results

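NRF2, encoded by Nfe2l2, and the genes of redox defence around it were followed in mouse leukaemia driven by AE9a, sampled as AE9a+ cells from the spleen. The set comprises 10 of the 52459 gene symbols in the deposited tables, taken by symbol: Nfe2l2, Keap1, Sqstm1, Nqo1, Gclc, Gclm, Slc7a11, Txnrd1, Srxn1 and Prdx1. All 10 were found, and 9 of them had enough counts to be tested.

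RNA-seq was done on 8 libraries from 8 moribund mice. AE9a is a truncated RUNX1-RUNX1T1 fusion protein. It was delivered, together with a doxycycline-inducible hairpin against Tet2, by retrovirus into cKit+ marrow cells of C57BL/6J mice (genotype RTA shTet2). Lethally irradiated C57BL/6J recipients, 6 to 8 weeks old, received the AE9a+ cells with wild-type support marrow, so every spleen could also hold support-derived or host cells. Among secondary recipients, mice 21 and 23 had doxycycline withdrawn and received PBS (2 mice, Tet2 restored). Mice 28 and 30 stayed on doxycycline with ascorbate (2 mice, ascorbate), and mice 16, 17 and 19 stayed on doxycycline with PBS (3 mice, PBS knockdown). Mouse 12 was a primary recipient on doxycycline, the 1 library of its kind and so without a replicate. Its label names no PBS treatment, so transplant generation and PBS cannot be told apart where PBS knockdown mice are set against it. Effects of losing doxycycline and of any regain of Tet2 cannot be told apart, because every mouse labelled Tet2 restored had doxycycline withdrawn.

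In resting cells NRF2 is held by KEAP1, an adaptor that hands it to a cullin ubiquitin ligase for destruction. Oxidants and electrophiles modify cysteines of KEAP1, NRF2 then accumulates, pairs with a small MAF protein and switches on genes that carry an antioxidant response element. Its targets make glutathione, reduce thioredoxin and detoxify quinones. The pathway is regulated mainly at the protein level, so the Nfe2l2 transcript is not a measure of NRF2 activity.

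Libraries held 18136978 to 34197877 counts, and mitochondrial genes took 5.16% to 17.1% of them, with the highest shares in mouse 28 (17.1%) and mouse 23 (14.5%). Tet2, the hairpin's target, was at 14.1 and 23.1 CPM (reads assigned to the gene, scaled to a common library total with TMM factors) in Tet2-restored mice 21 and 23, 13.7 and 11.7 CPM in ascorbate mice 28 and 30, 12.6, 12.8 and 13.4 CPM in PBS knockdown mice 16, 17 and 19, and 9.26 CPM in the primary mouse. Mouse 21 thus stood close to the knockdown mice. Of 8 markers of myeloid progenitor leukaemia, Kit, Myb and Runx1t1 were expressed in every library, whereas Mpo, Elane and Ctsg did not exceed 6.33, 0.653 and 0.653 CPM. Cd34 averaged 0.227 CPM in Tet2-restored, 0.736 CPM in ascorbate and 1.80 CPM in PBS knockdown mice, and was at 19.8 CPM in the primary mouse. Prtn3 averaged 7.26, 7.85 and 2.47 CPM in the same secondary groups and was at 1.19 CPM in the primary mouse. Erythroid markers summed to 5084 to 13316 CPM, with sums that overlapped between the secondary groups, and against PBS knockdown 9 of 11 had negative estimates in Tet2-restored mice and 10 of 11 in ascorbate mice. Hbb-bs had the highest mean of them in each group and made much of these sums. It averaged 7507 CPM in Tet2-restored, 6153 CPM in ascorbate and 5788 CPM in PBS knockdown mice, and was at 2831 CPM in the primary mouse. B cell markers summed to 12.2 to 27.1 CPM in Tet2-restored mice, 11.7 to 21.1 CPM in ascorbate mice, 27.3 to 28.9 CPM in PBS knockdown mice and 81.3 CPM in the primary mouse, and 8 of 8 had negative estimates in each arm (medians -0.66 in Tet2-restored and -1.04 in ascorbate mice). Ighm alone gave 78.1 CPM of the sum in the primary mouse and averaged 21.4 CPM in PBS knockdown mice. In PBS knockdown mice against the primary mouse, 6 of 8 B cell markers had positive estimates (median 1.08). Markers of splenic macrophages summed to 15.6 to 51.0 CPM in Tet2-restored mice, 41.4 to 45.1 CPM in ascorbate mice, 106 to 128 CPM in PBS knockdown mice and 76.9 CPM in the primary mouse, and of these 12 markers Marco was at 0 counts in 4 libraries. Slc40a1 was the highest macrophage marker in each group and made much of these sums. It averaged 12.9 CPM in Tet2-restored, 19.3 CPM in ascorbate and 60.1 CPM in PBS knockdown mice. In the primary mouse it was at 56.2 CPM, so that sum rests mainly on this gene. Neutrophil markers summed to 42.4 CPM in the primary mouse and to at most 12.5 CPM in any secondary mouse. In bulk samples, fewer cells of a type and less RNA per cell cannot be told apart.

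Levels between genes were compared as FPKM, the authors' value scaled for transcript length and library size. Averaged over the 8 libraries, the order was Prdx1 at 96.3 ± 8.59 FPKM (SD), Sqstm1 at 83.7 ± 24.4, Nqo1 at 77.8 ± 5.76, Gclc at 33.3 ± 5.70, Nfe2l2 at 28.6 ± 4.03, Gclm at 28.4 ± 6.86, Keap1 at 26.5 ± 2.62, Txnrd1 at 14.7 ± 2.62 and Srxn1 at 7.77 ± 1.37, all as FPKM levels. The first 3 overlapped in their ranges over libraries, as did Gclc, Nfe2l2, Gclm and Keap1. Slc7a11 was listed at 0 FPKM in every library. Across libraries, Sqstm1 spread most widely, with a highest level 2.52 times its lowest on the CPM scale, followed by Gclm at 2.37 times. Nqo1 and Prdx1 varied least, at 1.25 and 1.28 times. The SD of log2(CPM + 0.5) over the 8 libraries had a median of 0.23 among the 9 expressed members and 0.33 among the 13024 genes of the 8-library fit. These sets were not matched for level, so the medians do not show that the members were steadier than other genes.

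**Figure D1:**
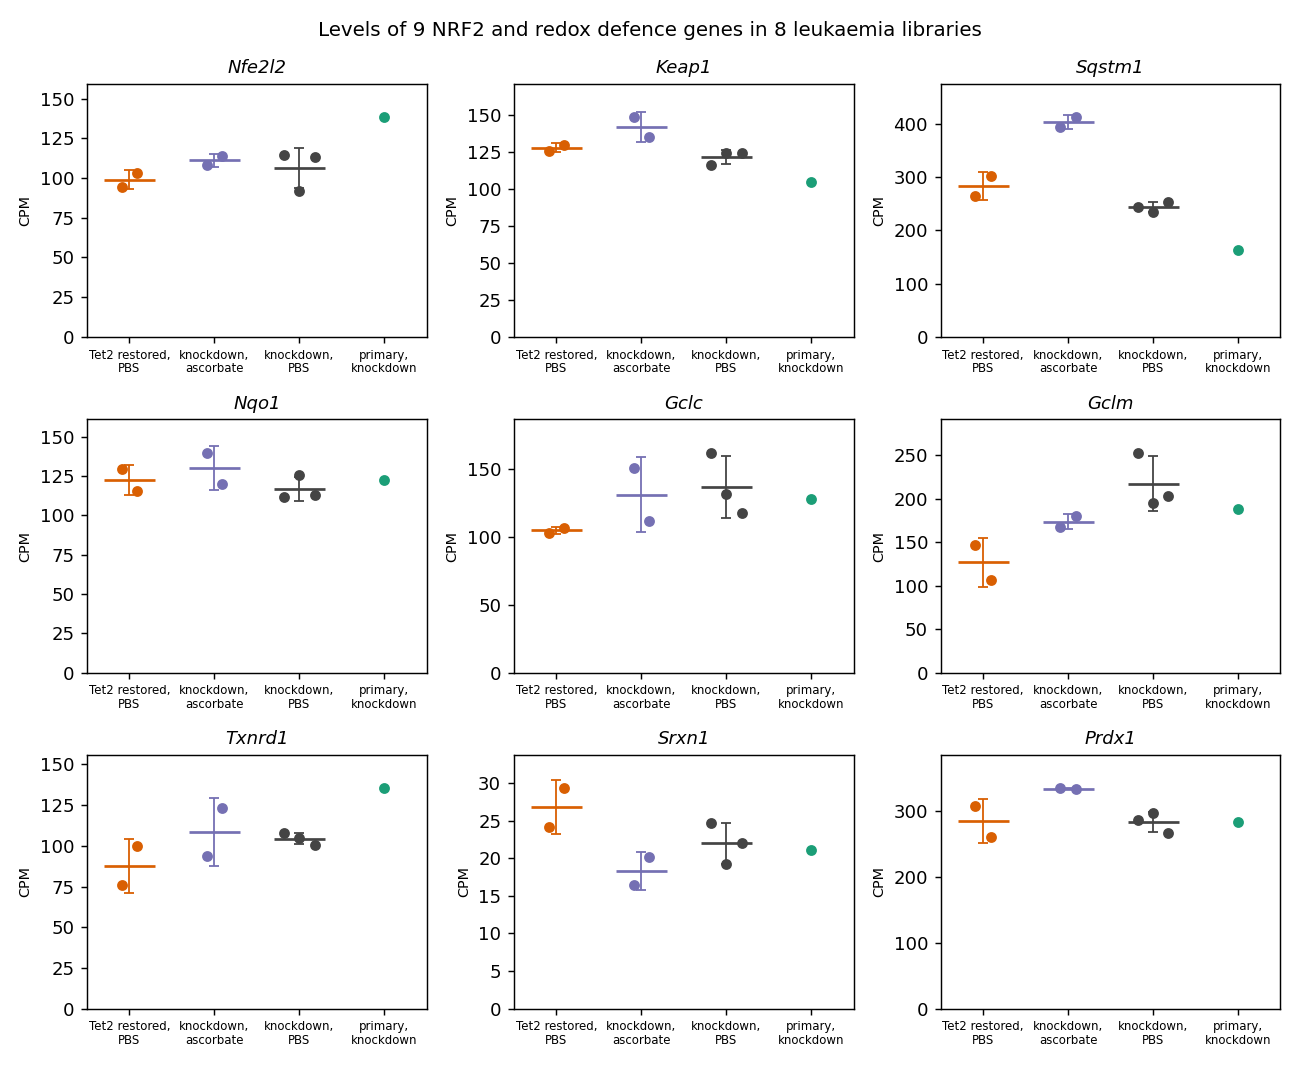
CPM of 9 members (vertical axis, from 0) in each library, by group; points are mice, horizontal lines group means and bars SD where a group has more than 1 mouse. Sqstm1 stands at 395 and 414 CPM in the ascorbate mice, above all other libraries, and Gclm is lowest in the Tet2-restored mice at 147 and 107 CPM.

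Of the regulators, Nfe2l2 (chromosome 2, 75675513 to 75704641, minus strand, GRCm38) was at 94.6 and 103 CPM in Tet2-restored mice 21 and 23, 108 and 114 CPM in ascorbate mice 28 and 30, 114, 91.6 and 113 CPM in PBS knockdown mice 16, 17 and 19, and 139 CPM in the primary mouse. Each arm overlapped the PBS knockdown range, the Tet2-restored libraries lay below the ascorbate ones, and the primary library was the highest of all. For Tet2 restored over PBS knockdown, Nfe2l2 had a log2 fold change of -0.11 (SE 0.16, adjusted p 0.683). The value was 0.055 (SE 0.16, adjusted p 0.858) for ascorbate over PBS knockdown, by edgeR's quasi-likelihood test with adjustment over all genes. For secondary over primary knockdown it was -0.38 (SE 0.19, adjusted p 0.595). The 95% interval of the ascorbate value, 0.812 to 1.33 as a fold, contains no change and does not show that the levels were equal.

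Keap1 (chromosome 9, 21229730 to 21239361, minus strand), the adaptor that represses NRF2, was at 125 and 130 CPM in Tet2-restored mice, 149 and 135 CPM in ascorbate mice, 116, 124 and 124 CPM in PBS knockdown mice and 105 CPM in the primary mouse. Both arms lay above the PBS knockdown range, by a small margin for Tet2 restored. Neither the Tet2-restored log2 fold change of 0.073 (SE 0.14, adjusted p 0.750) nor the ascorbate value of 0.21 (SE 0.14, adjusted p 0.361) was past the threshold. Keap1 shares 510 exonic bases with the antisense gene Gm16754, which had at most 30 counts in a library.

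Sqstm1 (chromosome 11, 50199366 to 50210827, minus strand) encodes p62, an autophagy receptor that also binds KEAP1 and so releases NRF2, and it is itself an NRF2 target. It was at 264 and 303 CPM in Tet2-restored mice 21 and 23, 395 and 414 CPM in ascorbate mice 28 and 30, 245, 236 and 254 CPM in PBS knockdown mice 16, 17 and 19, and 164 CPM in the primary mouse. Both ascorbate libraries lay above all others, both Tet2-restored libraries lay above the PBS knockdown range, and the primary library was the lowest. Means were 405 ± 13.1 CPM in ascorbate mice (SD, n = 2) and 245 ± 9.02 CPM in PBS knockdown mice (SD, n = 3). Sqstm1 rose under ascorbate, by 1.64-fold (95% interval 1.33 to 2.02; log2 fold change 0.72, SE 0.13, edgeR adjusted p 0.0348). By edgeR as reported, it was the only member past the threshold in any of the 4 comparisons. The call was lost without mouse 28 (adjusted p 0.140), mouse 30 (0.140), mouse 16 (0.108), mouse 17 (0.0707) or mouse 19 (0.109), while the log2 fold change stayed between 0.68 and 0.76. It held without mouse 21 or 23 and in the 9 alternatives that keep every library, with adjusted p from 0.000258 to 0.0484 in those 9.

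Macrophage marker sums were 41.4 to 45.1 CPM in the ascorbate mice and 106 to 128 CPM in the PBS knockdown mice, and mitochondrial shares were 17.1% in mouse 28 and 9.73% in mouse 30. The part of either in the Sqstm1 value was not tested. In Tet2-restored mice Sqstm1 had a log2 fold change of 0.21 (SE 0.13, adjusted p 0.319), for Tet2 restored over ascorbate -0.50 (SE 0.15, adjusted p 0.190), and for secondary over primary knockdown 0.58 (SE 0.18, adjusted p 0.330). Exons of Sqstm1 share 580 bases with Mrnip on the opposite strand. Mrnip had at most 17.9 CPM in any library and a log2 fold change of 0.065 (SE 0.29, adjusted p 0.911) under ascorbate.

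The promoter of Sqstm1 is shown because it is the member that rose. It is the RefSeq window of 250 bases before to 50 after the start (GRCm38.p6, chr11:50210771-50211070, minus strand), in lower case because it holds no antioxidant response element core, searched as TGACNNNGC on both strands. No match says only that these letters are not in this window.
Sqstm1: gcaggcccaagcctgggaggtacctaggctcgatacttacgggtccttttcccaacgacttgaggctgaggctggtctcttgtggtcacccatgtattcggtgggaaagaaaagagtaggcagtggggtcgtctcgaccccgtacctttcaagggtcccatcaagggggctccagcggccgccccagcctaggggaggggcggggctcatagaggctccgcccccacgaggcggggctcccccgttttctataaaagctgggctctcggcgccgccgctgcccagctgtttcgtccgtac

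Of the 32851 mouse promoter windows of this length, 12.4% hold the core TGACNNNGC. Windows matched 9 of the 10 members, and 5 members held the core: Nfe2l2, Gclm, Srxn1, Prdx1 and 1 of 3 RefSeq starts of Txnrd1. Keap1, Nqo1, Slc7a11 and Sqstm1 held none in this window. A match is a description of the sequence and not a bound site.

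Gclc and Gclm encode the catalytic and modifier subunits of glutamate-cysteine ligase, the rate-limiting enzyme of glutathione synthesis. Gclm (chromosome 3, 122245557 to 122270732, plus strand) was at 147 and 107 CPM in Tet2-restored mice 21 and 23, 168 and 180 CPM in ascorbate mice 28 and 30, 253, 196 and 204 CPM in PBS knockdown mice 16, 17 and 19, and 189 CPM in the primary mouse. All 4 libraries of the arms lay below the PBS knockdown range, and those of Tet2 restored were the lowest. Means were 127 ± 28.4 CPM in Tet2-restored mice (SD, n = 2) and 218 ± 31.2 CPM in PBS knockdown mice (SD, n = 3). The log2 fold change of Tet2 restored over PBS knockdown was -0.78 (SE 0.19, 95% interval -1.20 to -0.36), with an edgeR adjusted p of 0.0558 that missed the threshold. With a library left out it ran from -1.02 without mouse 21 (adjusted p 0.0246) to -0.57 without mouse 23 (adjusted p 0.325), and the threshold was missed without any library other than mouse 21. With DESeq2 it was -0.78 (adjusted p 0.00291), beside 1951 of 12134 genes called by DESeq2. Under ascorbate the value was -0.34 (SE 0.19, adjusted p 0.298), and for Tet2 restored over ascorbate -0.44 (SE 0.20, adjusted p 0.318). With an offset for transcript length, which trended differently between libraries, the Tet2-restored value was -0.59 (adjusted p 0.0780). Exons of Gclm overlap Gm17494 and Gm6061, which had at most 15 and 0 counts in a library.

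The promoter of Gclm is shown because its transcript had the lowest p of the members in Tet2-restored mice (GRCm38.p6, chr3:122245307-122245606, plus strand). Capitals mark the antioxidant response element core, here on the opposite strand and reading TGACGGTGC there, with the leftmost capital at position -134 from the start.
Gclm: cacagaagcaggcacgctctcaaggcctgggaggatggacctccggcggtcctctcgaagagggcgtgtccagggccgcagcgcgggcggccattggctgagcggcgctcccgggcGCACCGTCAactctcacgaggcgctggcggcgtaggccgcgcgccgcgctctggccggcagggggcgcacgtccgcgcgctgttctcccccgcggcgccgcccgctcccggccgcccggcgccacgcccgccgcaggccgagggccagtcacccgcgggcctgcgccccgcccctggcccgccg

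Gclc (chromosome 9, 77754535 to 77794485, plus strand) was at 103 and 107 CPM in Tet2-restored mice, 151 and 112 CPM in ascorbate mice, 162, 132 and 118 CPM in PBS knockdown mice and 128 CPM in the primary mouse. The Tet2-restored libraries lay below all others, and the ascorbate libraries spanned much of the PBS knockdown range. The log2 fold changes were -0.39 (SE 0.19, adjusted p 0.208) for Tet2 restored and -0.075 (SE 0.19, adjusted p 0.837) for ascorbate.

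Slc7a11 (chromosome 3, 49892526 to 50443614, minus strand) encodes xCT, the transporter chain that brings in cystine for glutathione synthesis. It had 1 count in Tet2-restored mouse 23 and 0 counts in each of the other 7 libraries. The limit that 3 counts set ran from 0.0852 CPM in the primary mouse to 0.183 CPM in mouse 28, for counting error only. No fold was computed, since every group was under that limit. Slc3a2, the heavy chain with which xCT and several other amino acid transporters pair, was by contrast at 298 and 212 CPM in Tet2-restored mice, 277 and 306 CPM in ascorbate mice, 242, 271 and 222 CPM in PBS knockdown mice and 323 CPM in the primary mouse.

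Txnrd1 (chromosome 10, 82833951 to 82897712, plus strand), the cytosolic thioredoxin reductase, was at 76.1 and 99.6 CPM in Tet2-restored mice, 93.5 and 123 CPM in ascorbate mice, 108, 105 and 101 CPM in PBS knockdown mice and 135 CPM in the primary mouse. Tet2-restored mice lay below the PBS knockdown range, mouse 23 only just, and the 2 ascorbate mice lay on either side of it. The log2 fold change was -0.25 (SE 0.18, adjusted p 0.380) for Tet2 restored, and was -0.025 (adjusted p 0.939) with the transcript length offset. In ascorbate mice Txnrd1 had 0.044 (SE 0.18, adjusted p 0.904).

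Srxn1 (chromosome 2, 152105516 to 152111376, plus strand), sulfiredoxin, restores peroxiredoxins that have been over-oxidised. It was at 24.2 and 29.3 CPM in Tet2-restored mice, 16.5 and 20.1 CPM in ascorbate mice, 24.7, 19.2 and 22.0 CPM in PBS knockdown mice and 21.1 CPM in the primary mouse. Its estimates had opposite signs in the arms, 0.28 (SE 0.20, adjusted p 0.377) in Tet2-restored mice and -0.27 (SE 0.20, adjusted p 0.438) in ascorbate mice, and neither passed. The direct test of Tet2 restored over ascorbate gave 0.55 (SE 0.22, 95% interval 0.053 to 1.05), with an adjusted p of 0.268 over all genes.

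Prdx1 (chromosome 4, 116685544 to 116700822, plus strand), a peroxiredoxin that removes hydrogen peroxide with electrons from thioredoxin, was at 308 and 261 CPM in Tet2-restored mice, 334 and 333 CPM in ascorbate mice, 286, 297 and 267 CPM in PBS knockdown mice and 283 CPM in the primary mouse. The ascorbate libraries were the highest, and the Tet2-restored libraries lay on either side of the PBS knockdown range. The log2 fold changes were 0.0031 (SE 0.14, adjusted p 0.992) for Tet2 restored and 0.23 (SE 0.14, adjusted p 0.342) for ascorbate. Its promoter is shown because it is the most abundant member per length and its core match, TGACTCAGC on the opposite strand with the leftmost capital at position -133, also holds an AP-1 site (TGANTCA). That 9-base sequence occurs in 0.454% of mouse promoter windows, and TGANTCA in 7.81%. The window is chr4:116685349-116685648 (GRCm38.p6, plus strand), with the core in capitals.
Prdx1: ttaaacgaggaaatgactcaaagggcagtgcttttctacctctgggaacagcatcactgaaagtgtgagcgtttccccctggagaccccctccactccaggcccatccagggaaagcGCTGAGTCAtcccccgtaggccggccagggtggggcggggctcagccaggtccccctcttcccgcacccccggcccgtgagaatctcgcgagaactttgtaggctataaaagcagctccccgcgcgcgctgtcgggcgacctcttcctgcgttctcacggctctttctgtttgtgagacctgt

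Nqo1 (chromosome 8, 107388225 to 107403206, minus strand), a quinone reductase and a standard readout of NRF2, was at 129 and 116 CPM in Tet2-restored mice, 140 and 120 CPM in ascorbate mice, 112, 125 and 113 CPM in PBS knockdown mice and 122 CPM in the primary mouse. All groups overlapped. The log2 fold changes were 0.069 (SE 0.15, adjusted p 0.783) for Tet2 restored and 0.15 (SE 0.15, adjusted p 0.562) for ascorbate. The ascorbate interval ran from 0.882 to 1.39 as a fold. By the root mean square difference of log2 CPM deviations over the 8 libraries, the genes most like Nqo1 were Araf (0.052), Polr2g (0.056) and Dhrs4 (0.057), and those most like Nfe2l2 were Adnp2 (0.040), Chst15 (0.055) and Ppp2r2a (0.056), out of 10958 genes searched. Nqo1 varied least of the members, and this measure places genes that vary little near each other. Shared regulation was not tested.

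**Figure D2:**
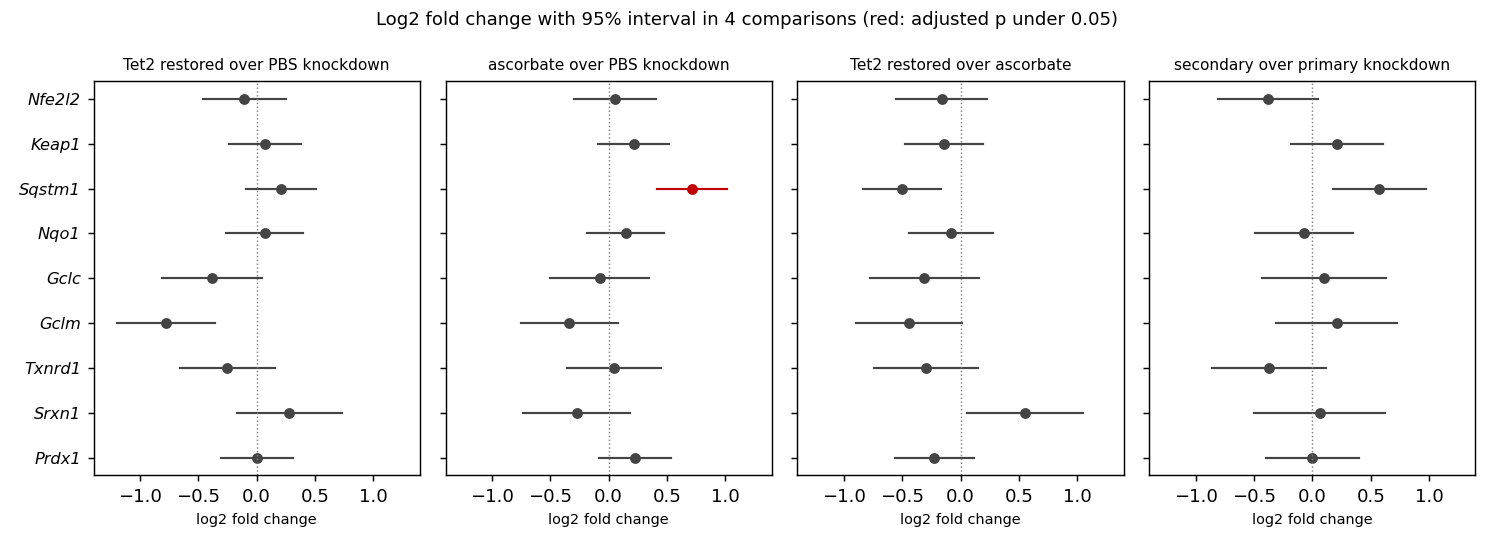
Log2 fold change (horizontal axis) of 9 members with its 95% interval in 4 comparisons; red marks an edgeR adjusted p under 0.05 over all genes. Sqstm1 under ascorbate, at 0.72, is the 1 value past that threshold.

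For Tet2 restored over PBS knockdown, 0 of 9 tested members and 0% of 12137 genes passed by edgeR. At an unadjusted p under 0.05 there was 1 member, Gclm, lower, and 3549 genes (29.2%, with 14.1% higher and 15.2% lower), whereas DESeq2 called 1951 genes and limma on FPKM 0. Libraries of these groups did not overlap for 5 of 9 members (2 higher, 3 lower) and for 49.4% of all genes (24.9% higher, 24.5% lower), and the members' median log2 fold change was 0.0031 beside -0.0020 over all genes. For ascorbate over PBS knockdown, 1 of 9 members passed, Sqstm1, beside 2.86% of 12137 genes (347 genes, 132 or 1.09% higher and 215 or 1.77% lower, or 83 and 300 on library totals and 270 and 242 with the transcript length offset). Leaving out an ascorbate mouse left 2 genes (mouse 28) or 7 genes (mouse 30). Leaving out a PBS knockdown mouse left 5 (mouse 16), 87 (mouse 17) or 15 (mouse 19), and leaving out a Tet2-restored mouse gave 796 (mouse 21) or 763 (mouse 23). At an unadjusted p under 0.05 there was 1 member, Sqstm1, and 23.6% of genes (10.7% higher, 12.9% lower). Libraries did not overlap for 4 of 9 members (3 higher, 1 lower) and for 45.9% of genes (22.4% higher, 23.5% lower), and the members' median was 0.055 beside -0.012. Library totals shift the median of all genes to -0.12 in this comparison and to 0.13 in Tet2 restored over ascorbate.

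For Tet2 restored over ascorbate, 0 of 9 members passed by edgeR, with 2 at an unadjusted p under 0.05 (Sqstm1 lower, Srxn1 higher) beside 16.2% of genes (8.85% higher, 7.35% lower). Over all genes 0.00824% passed, a single gene chosen after its values were seen: H1f0, a linker histone, at 168 and 275 CPM in Tet2-restored mice and 38.9 and 36.9 CPM in ascorbate mice. DESeq2 called 444 genes there, and the lowest adjusted p of a member was 0.0609, for Sqstm1. Of the 9 members 8 had negative estimates, 7 had libraries that did not overlap (1 higher, 6 lower, beside 44.8% of genes, 22.8% higher and 22.1% lower), and the median was -0.22 beside 0.014. For secondary over primary knockdown, 0 of 9 members and 0.115% of 13024 genes passed (15 genes, 0.0461% higher and 0.0691% lower), with 1 member, Sqstm1, higher at an unadjusted p under 0.05 beside 9.08% of genes (4.69% higher, 4.39% lower). Libraries did not overlap for 5 of 9 members (3 higher, 2 lower) and for 61.6% of genes (29.7% higher, 31.8% lower), and the members' median was 0.063 beside 0.011. DESeq2 called 220 genes. Here the lone primary library is assumed to vary like the others. Both arms are set against the same 3 PBS knockdown mice, so their values are not independent of each other.

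Genes that control NRF2 beside the members (other CNC factors, small MAF partners, BACH repressors and ubiquitin ligases; 17 of 19 tested) had 0 genes past the edgeR threshold in any comparison, with 3 of 17 at an unadjusted p under 0.05 in Tet2-restored mice (29.2% of all genes) and 9 of 17 under ascorbate (23.6% of all genes). In Tet2-restored mice 5 had positive and 12 negative estimates (median -0.12), with the smallest p for Btrc, a substrate adaptor that also marks NRF2 (-0.84, SE 0.29, adjusted p 0.103), and Rbx1, the ring subunit of the KEAP1 ligase (0.45, SE 0.17, adjusted p 0.116). Btrc was -0.35 with the transcript length offset. Under ascorbate 10 were positive and 7 negative (median 0.14), with Syvn1, a ligase of the endoplasmic reticulum, at 0.58 (SE 0.16, adjusted p 0.0785) and Palb2 at -0.75 (SE 0.23, adjusted p 0.0961).

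Other NRF2 targets (25 of 30 tested) split evenly in Tet2-restored mice, 13 positive and 12 negative with a median of 0.012, and under ascorbate 16 were positive and 9 negative with a median of 0.19. By edgeR 0 passed in either, with 4 of 25 in Tet2-restored mice (29.2% of all genes) and 5 of 25 under ascorbate (23.6%) at an unadjusted p under 0.05. The smallest p belonged to Hmox1, haem oxygenase, which degrades haem and is abundant in splenic macrophages. Hmox1 was at 2.47 and 1.46 CPM in Tet2-restored mice, 2.32 and 2.55 CPM in ascorbate mice, 5.65, 7.14 and 8.14 CPM in PBS knockdown mice and 3.12 CPM in the primary mouse. All libraries of both arms lay below the PBS knockdown range. Hmox1 had -1.82 (SE 0.35, adjusted p 0.0502) in Tet2-restored mice and -1.52 (SE 0.35, adjusted p 0.0510) in ascorbate mice. Of the 12 macrophage markers 11 were tested, and all 11 had negative estimates in each arm, while Marco, at 0 counts in 4 libraries, was too low to test. Their median was -1.59 in Tet2-restored mice, where 0 passed by edgeR and 8 had an unadjusted p under 0.05 (29.2% of all genes). In ascorbate mice it was -1.65, and 3 passed (2.86% of all genes). Their part in the Hmox1 values was not tested. Next in p were Abcc4, an efflux pump (-0.72, SE 0.20, adjusted p 0.0669), in Tet2-restored mice and Akr1a1, an aldehyde reductase (0.47, SE 0.16, adjusted p 0.122), under ascorbate.

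**Figure D3:**
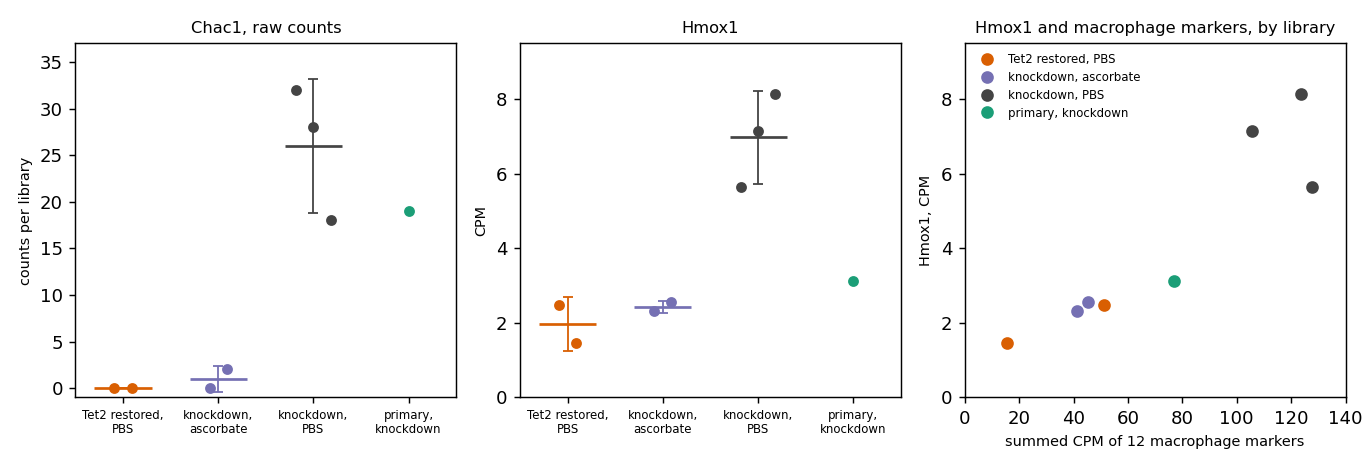
Chac1 as raw counts and Hmox1 as CPM by group (points are mice, lines means, bars SD), and Hmox1 CPM against the summed CPM of 12 macrophage markers in each library. Chac1 has 18 to 32 counts in PBS knockdown mice and at most 2 in any mouse of the other secondary groups, and Hmox1 is highest in the 3 PBS knockdown mice, which also have the highest marker sums. Among these 3, mouse 16 has the highest marker sum and the lowest Hmox1. Slc40a1 alone gives 56.2 of the 76.9 CPM summed in the primary mouse.

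In the glutathione list (16 of 20 tested) the gene that changed was Chac1, a cyclotransferase that breaks glutathione down and is a known target of ATF4. It had 0 and 0 counts in Tet2-restored mice 21 and 23, 0 and 2 counts in ascorbate mice 28 and 30, 32, 28 and 18 counts in PBS knockdown mice 16, 17 and 19, and 19 counts in the primary mouse. Neither arm overlapped the PBS knockdown mice, and the arms overlapped each other at 0. Chac1 fell under ascorbate (edgeR adjusted p 0.0473): over the groups the PBS knockdown level was 20.4 times the ascorbate level, with a 95% counting interval of 5.46 to 171. This call was lost with all 8 libraries in the fit (adjusted p 0.0514) and without mouse 28 (0.222), mouse 30 (0.133), mouse 16 (0.137), mouse 17 (0.0833) or mouse 19 (0.0933). For Tet2-restored mice, the PBS knockdown level was 14.9 times the limit that 3 counts over the group set. The lower end of the 95% counting interval put the PBS knockdown level at 11.8 times the Tet2-restored level. The edgeR adjusted p of Chac1 there was 0.0502. Gsto1, a glutathione transferase that reduces dehydroascorbate, was at 196 and 264 CPM in Tet2-restored mice, 205 and 146 CPM in ascorbate mice and 111, 132 and 104 CPM in PBS knockdown mice. Gsto1 had 0.99 (SE 0.20, adjusted p 0.0502) in Tet2-restored mice. By edgeR 0 of 16 passed in Tet2-restored mice (0% of all genes) and 1 of 16, Chac1, under ascorbate (2.86% of all genes). At an unadjusted p under 0.05, 2 were higher and 2 lower in Tet2-restored mice (14.1% and 15.2% of all genes). Under ascorbate 1 was higher and 2 lower (10.7% and 12.9% of all genes). The list's median was 0.044 in Tet2-restored mice and 0.088 under ascorbate, and the first value is the same with Chac1 at its limit.

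Thioredoxin, peroxiredoxin and methionine sulfoxide repair genes (18 of 20 tested) had 10 positive and 8 negative estimates in Tet2-restored mice (median 0.058) and 15 and 3 under ascorbate (median 0.23), with 0 past the edgeR threshold in each. At an unadjusted p under 0.05 there were 6 of 18 in Tet2-restored mice (29.2% of all genes) and 2 of 18 under ascorbate (23.6%). The smallest p were those of Prdx5 (0.71, SE 0.19, adjusted p 0.0652) and Txndc17 (0.58, SE 0.17, adjusted p 0.0753) in Tet2-restored mice, and of Msrb1 (0.46, SE 0.17, adjusted p 0.138) and Msra (0.59, SE 0.21, adjusted p 0.139), reductases of methionine sulfoxide, under ascorbate. Superoxide dismutases, catalase and the phagocyte NADPH oxidase (10 of 11 tested) had positive estimates for 6 of 10 in Tet2-restored mice (median 0.32) and 9 of 10 under ascorbate (median 0.24), with 0 past the edgeR threshold. In each arm 4 of 10 had an unadjusted p under 0.05, beside 29.2% of all genes for Tet2 restored and 23.6% for ascorbate. Neutrophil markers, of a cell type rich in this oxidase, had positive estimates for 6 of 6 tested in each arm (medians 1.30 in Tet2-restored and 1.73 in ascorbate mice). They summed to 5.81 to 11.2 CPM in Tet2-restored mice, 7.64 to 12.5 CPM in ascorbate mice and 0.605 to 8.45 CPM in PBS knockdown mice, with Ly6g at 0 counts in 6 of the 8 libraries. Prtn3, a granule protease of neutrophils and their precursors, averaged 7.26 ± 2.16 CPM in Tet2-restored mice (SD, n = 2), 7.85 ± 0.468 CPM in ascorbate mice (SD, n = 2) and 2.47 ± 0.573 CPM in PBS knockdown mice (SD, n = 3). It stands in the leukaemia list, not in the neutrophil list. The other granule genes of that list were lower and did not rise alike in both arms. Mpo averaged 0.875, 0.624 and 0.656 CPM in the same order, Elane 0.174, 0.0418 and 0.123 CPM, and Ctsg 0.293, 0.0418 and 0.0406 CPM. The part of these markers in the oxidase values was not tested. Ncf4, a cytosolic subunit of the oxidase, was at 24.2 and 19.7 CPM in Tet2-restored mice, 21.3 and 20.4 CPM in ascorbate mice and 11.7, 12.4 and 12.7 CPM in PBS knockdown mice, without overlap. Ncf4 had 0.84 (SE 0.19, adjusted p 0.0520) in Tet2-restored mice and 0.75 (SE 0.19, adjusted p 0.0614) in ascorbate mice. Ncf1 had 1.76 (SE 0.46, adjusted p 0.0638) in Tet2-restored mice, with at most 3.28 CPM in any library, and Cyba 0.62 (SE 0.20, adjusted p 0.118) under ascorbate. Cybb, another oxidase gene, had lower means in both arms, with wide SD. It averaged 4.73 ± 3.40 CPM in Tet2-restored, 5.66 ± 1.69 CPM in ascorbate and 8.01 ± 5.54 CPM in PBS knockdown mice.

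The autophagy receptors and LC3 family genes beside Sqstm1 (12 of 12 tested) had positive estimates for 9 in Tet2-restored mice (median 0.26) and for 11 under ascorbate (median 0.40), beside medians of -0.0020 and -0.012 over all genes, and 0 passed by edgeR in each. At an unadjusted p under 0.05 there were 4 of 12 in Tet2-restored mice (29.2% of all genes) and 5 of 12 under ascorbate (23.6%). In Tet2-restored mice the smallest p were those of Gabarap (0.53, SE 0.15, adjusted p 0.0663) and Ulk1 (-0.46, SE 0.17, adjusted p 0.118), and under ascorbate those of Gabarapl1 (0.57, SE 0.16, adjusted p 0.0823) and Gabarap (0.48, SE 0.15, adjusted p 0.0959), which attach to autophagosome membranes. Gabarap was at 446 and 541 CPM in Tet2-restored mice, 520 and 440 CPM in ascorbate mice, 333, 352 and 338 CPM in PBS knockdown mice and 257 CPM in the primary mouse, so that both arms lay above the PBS knockdown range. Ulk1, the kinase that starts autophagy, was at 48.3 and 61.5 CPM in Tet2-restored mice, 120 and 103 CPM in ascorbate mice and 81.4, 70.7 and 74.0 CPM in PBS knockdown mice. It lay below the PBS knockdown range in the first arm and above it in the second. The direct test of Tet2 restored over ascorbate gave -1.02 (SE 0.19, adjusted p 0.0939) for Ulk1 and -0.56 (SE 0.17, adjusted p 0.194) for the receptor Nbr1. With DESeq2 the adjusted p was 0.000396 for Ulk1 and 0.0734 for Nbr1, beside 444 of 12134 genes called by DESeq2 there.

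**Figure D4:**
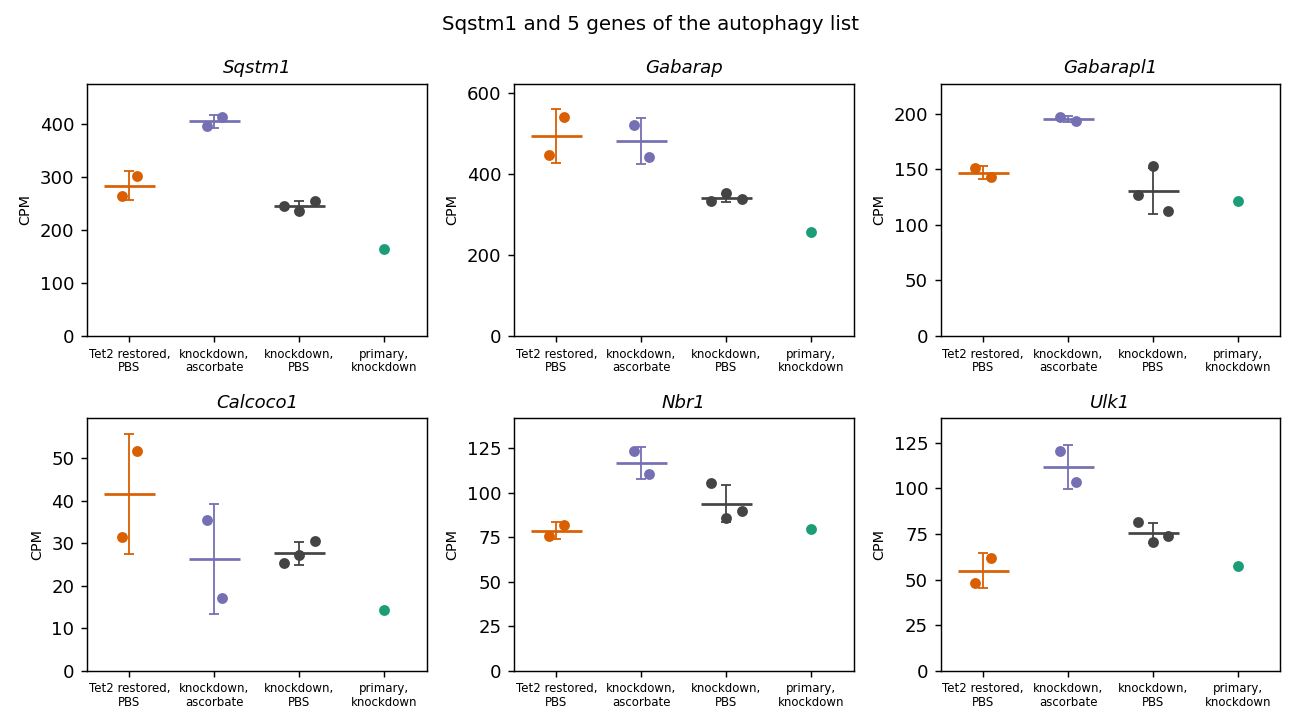
CPM (vertical axis, from 0) of Sqstm1 and 5 genes of the autophagy list by group; points are mice, lines means and bars SD. Sqstm1, Gabarapl1 and Ulk1 are highest in the ascorbate mice, and Ulk1 is lowest in the Tet2-restored mice among the secondary groups.

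ATF4 and its targets were followed because ATF4 also drives Slc7a11. Of 10 tested, 3 were positive in Tet2-restored mice (median -0.25) and 7 under ascorbate (median 0.19). Chac1 was the 1 member past the threshold, under ascorbate, beside 2.86% of all genes. At an unadjusted p under 0.05, 1 was higher and 3 lower in Tet2-restored mice (14.1% and 15.2% of all genes). Under ascorbate 1 was higher and 1 lower (10.7% and 12.9% of all genes). Ddit3, a stress transcription factor downstream of ATF4, was at 45.8 and 53.1 CPM in Tet2-restored mice, 38.9 and 46.9 CPM in ascorbate mice, 26.7, 28.2 and 22.9 CPM in PBS knockdown mice and 23.1 CPM in the primary mouse. Its log2 fold change in Tet2-restored mice was 0.93 (SE 0.18, adjusted p 0.0502), opposite in sign to that of Chac1.

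In the direct comparison of Tet2 restored over ascorbate, 0 genes of the 7 lists passed by edgeR. Some genes, among them Chac1, Gsr, Sesn2 and Slc3a2, stand in more than 1 list. Gsr, glutathione reductase, had 1.09 (SE 0.31, adjusted p 0.187), Nxn, nucleoredoxin, -1.33 (SE 0.29, adjusted p 0.142), Sesn2 -0.66 (SE 0.19, adjusted p 0.183), Syvn1 -0.56 (SE 0.17, adjusted p 0.198) and Ncf1 1.58 (SE 0.53, adjusted p 0.215). With DESeq2, Gsr (adjusted p 0.0361), Nxn (0.00441) and Sesn2 (0.0406) passed, beside 444 of 12134 genes called by DESeq2 in this comparison. The remaining genes named there were the small MAF protein Mafg (-0.58), the efflux pump Abcc1 (-0.48), Glo1 (-0.43), catalase Cat (-0.35) and the serine synthesis enzyme Phgdh (-2.61), with adjusted p of 0.230 to 0.395. For secondary over primary knockdown 0 genes of the lists passed by edgeR either. In that comparison 7 of 8 leukaemia markers (median -1.65) and 6 of 6 tested neutrophil markers (median -3.53) had negative estimates, and 11 of 11 tested macrophage markers had positive ones (median 1.55). Their part in the values that follow, and in those of the members above, was not tested. The smallest p there belonged to Trim21 (0.99, SE 0.35, adjusted p 0.393), Mafk (0.51, SE 0.19, adjusted p 0.447) and Hmox1 (1.16, SE 0.45, adjusted p 0.466), the last beside macrophage marker sums of 106 to 128 CPM in PBS knockdown mice and 76.9 CPM in the primary mouse. Of the 76.9 CPM in the primary mouse, 56.2 CPM came from Slc40a1 alone. The other values were Psat1 at -0.61, Calcoco1 at 0.95, Rac2 at 0.48, Sod1 at 0.43, Abcc1 at -0.43, Gabarap at 0.41, Glrx5 at 0.41, Slc3a2 at -0.40, Nxn at -0.48 and Prdx6 at 0.26, with adjusted p of 0.478 to 0.740.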

How the data were processed

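RNA of splenic AE9a+ cells was enriched with oligo-dT beads and made into libraries with the NEXTflex kit, per the labels' protocols. Raw counts by symbol and a table of FPKM values were deposited by the authors; STAR, featureCounts and DESeq2 were used with mm10 (GRCm38), per the submitters' processing notes. Versions, strand setting and annotation are not given in the sources used here, so reads of overlapping genes cannot be told apart. The deposited FPKM match count over GENCODE vM21 exonic length and DESeq2-type library factors, and 26 symbols had been turned into dates.

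Counts were tested with edgeR 4.0.16 (R 4.3.3; quasi-likelihood, robust, TMM factors, filterByExpr with a minimum count of 10) with Benjamini-Hochberg adjustment over all tested genes and a threshold of 0.05. The fit of 7 secondary libraries in 3 groups gave 3 comparisons, and a fit of all 8 gave secondary over primary knockdown. Each library is a separate mouse. Alternatives were DESeq2 1.42.0, limma 3.58.1 on log2 of FPKM plus 0.1 or plus 1 (genes that reached 1 FPKM in 2 libraries or more), other factors and filters, a transcript length offset (loess, from count over FPKM), other library sets, and each secondary library left out. The edgeR script was tested on simulated data. Of log2 changes of 1, it recovered 46 of 99 for Tet2 restored and 43 of 100 for ascorbate over PBS knockdown. For Tet2 restored over ascorbate it recovered 29 of 99, and for secondary over primary knockdown 12 of 95. Of log2 changes of 2, it recovered 73 of 98, 77 of 100, 79 of 100 and 56 of 96 in that order. Unchanged genes called numbered 12, 8, 11 and 5 in the same order. In these simulations, changes of 1 on the log2 scale were thus often missed. Only a small part of the genes was changed in them, so these shares need not hold for the real data. Libraries held 18136978 to 34197877 counts; intervals on counts and the limit of 3 counts reflect counting error alone, as the labels name no molecular identifiers.

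The members and gene lists were chosen with earlier results of these data known, so no p is given for a list. Named besides the 10 members are, per list and comparison, up to 4 genes past the threshold or else the 2 with the smallest p, and the 3 genes most like Nqo1 and Nfe2l2. Promoters are from RefSeq (GRCm38.p6) and coordinates from GENCODE vM21; symbols for 48082 of 52459 rows were found there.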

Additional observations from a re-analysis of the deposited data

How the results depend on the processing

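With DESeq2's test, 1951 genes passed for Tet2 restored over PBS knockdown, 1339 for ascorbate, 444 for Tet2 restored over ascorbate and 220 for secondary over primary knockdown, against 0, 347, 1 and 15 by edgeR. Without a low-count filter edgeR gave 2207, 1498, 582 and 467 in the same order. For Tet2 restored over PBS knockdown, DESeq2 size factors gave 276 and a minimum count of 30 gave 287, where the smallest adjusted p of the reported fit lies just above the threshold. On log2(FPKM + 1), limma called 222 for ascorbate and 3 for Tet2 restored over ascorbate, which was also 3 with the length offset and with all 8 libraries. With a library left out, the counts ran from 0 to 1692 (without mouse 21) for Tet2 restored, 2 to 796 for ascorbate, 0 (without mouse 28 or 17) to 5 (without mouse 23) for Tet2 restored over ascorbate, with 4 without mouse 21, and 6 (without mouse 17) to 45 (without mouse 16) for secondary over primary knockdown, with 9 without mouse 19 or 23, 27 without mouse 28 and 28 without mouse 30. The cause of these differences was not tested.

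Over the 9 tested members, 542 of the recomputed values kept direction and side of the threshold, 5 fell short of it (Sqstm1 under ascorbate), 3 passed (Gclm in Tet2-restored mice, at -0.79 without a filter) and 26 changed sign, all of them for log2 fold changes near 0. For Tet2 restored over PBS knockdown, Nqo1 was -0.18 with the length offset and -0.0064 to 0.14 with a library left out. Prdx1 there was -0.0099 with DESeq2 size factors, -8.09e-05 with DESeq2's test, -0.015 with limma at either pseudocount, -0.010 without a filter, -0.056 with the length offset and -0.11 to 0.11 with a library left out. Under ascorbate, Nfe2l2 was -0.054 on library totals and -0.047 to 0.12 with a library left out, Gclc 0.0066 with the length offset and -0.30 to 0.12, and Txnrd1 -0.059 on library totals and -0.18 to 0.23. For Tet2 restored over ascorbate, Nqo1 was 0.043 on library totals and -0.18 to 0.026. For secondary over primary knockdown, Gclc ran from -0.075 to 0.17, Srxn1 from -0.065 to 0.15 and Prdx1 from -0.044 to 0.013 with a library left out, and Prdx1 was 0.0050 at a minimum count of 30 and 0.023 with only the groups compared. Chac1 had no adjusted p from DESeq2. With 1 to 3 libraries in a group, a missed threshold does not show equal levels. No paired analysis was possible because each mouse has its own number and the groups share none.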
